A study of Mus musculus with 6 samples.

Results

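The islet is one of the most densely vascularised tissues, and the 10 genes described here mark its capillaries and the main signal that maintains them. They are the 9 endothelial genes *Pecam1*, *Cdh5*, *Kdr*, *Flt1*, *Plvap*, *Esm1*, *Tek*, *Tie1* and *Eng*, together with *Vegfa*. The members were taken by name from the deposited expression table, and all 10 were found among its 55060 genes. All 10 also passed the filter on low values that left 21211 genes for testing.

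RNA was sequenced from islets of 3 Ctrl and 3 cKO mouse samples at 12 weeks of age, to ask how the loss of the deadenylase PARN in β cells alters islet transcripts. The cKO mice were Ins2-cre; Parn f/f, in which Cre recombinase driven by the *Ins2* promoter deletes floxed *Parn* in β cells. The Ctrl group held Parn f/f mice and other littermates, and the labels do not say which Ctrl samples carried Cre or a floxed allele. The islets were freed with collagenase and picked by hand, so each sample also holds endothelial, stromal and blood cells in which the *Ins2* promoter is not expected to drive Cre.

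β cells secrete VEGF-A, which binds the receptor tyrosine kinases VEGFR2, encoded by *Kdr*, and VEGFR1, encoded by *Flt1*, on the neighbouring endothelium. VEGFR2 carries most of the growth and permeability signal, whereas VEGFR1 binds the ligand tightly, signals weakly and is also made as a soluble decoy. A second receptor system, TIE2 from *Tek* with its partner TIE1 from *Tie1*, responds to angiopoietins and keeps vessels stable. Islet capillaries are fenestrated, and in this tissue VEGF-A from the endocrine cells is known to maintain both capillary density and fenestration.

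Values are FPKM, in which the fragments of a gene are divided by gene length and library size. The length is a single deposited value for each gene, such as 13504 bases for *Flt1* and 1987 for *Plvap*. An order of levels between genes therefore depends on these lengths. Library sizes read back from the values, the divisors of the FPKM, were 15731223 to 18085944. Reads summed over genes exceeded this divisor in every Ctrl sample (17519109, 16470783 and 17143763 against 17448160, 15731223 and 16636542). They fell below it in every cKO sample (17064511, 16289408 and 17944775 against 17567374, 17386443 and 18085944). The divisor is therefore not the count of reads on genes, and its part in the changes below was not tested. The labels do not say whether the samples came from separate animals, so the p-values measure the spread between these samples. *Parn* itself was at 6.64, 8.34 and 7.38 in Ctrl replicates 1, 2 and 3, and lower in every cKO sample, at 4.97, 4.61 and 6.15. Values of a genotype are given below in the order of replicates 1, 2 and 3. Ctrl replicate 1 stood apart in leukocyte genes, whose 8 markers summed to 625 FPKM in it and to 38.0 to 80.7 in the other 5 samples. Its 5 red blood cell markers summed to 1204, against 186 to 240 elsewhere. The 6 fibroblast markers summed to 35.8 and 36.8 in cKO replicates 2 and 3 and to 5.36 to 13.8 in the other 4 samples. Reads of the female transcript *Xist* (7541, 5769 and 9412) and of the Y-linked gene *Ddx3y* (572, 259 and 106) were both present in Ctrl replicates 1 and 2 and in cKO replicate 1. Each of these libraries therefore held RNA of both sexes and not that of a single animal alone. *Ddx3y* was at 0 in Ctrl replicate 3 and cKO replicate 2, and *Xist* was at 0.139 in cKO replicate 3, so sex composition differed between libraries.

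The 9 endothelial genes were present in every sample, at levels set by gene more than by genotype. In order of the mean over the 6 samples they ran from *Plvap* at 77.7 FPKM through *Esm1* at 28.7, *Kdr* at 13.5, *Eng* at 13.3, *Pecam1* at 10.3, *Cdh5* at 7.08, *Flt1* at 6.90 and *Tie1* at 6.76 to *Tek* at 3.23. *Kdr* and *Eng*, and likewise *Cdh5*, *Flt1* and *Tie1*, differed from each other by less than the spread between samples. *Vegfa* stood above all of them with a mean of 100.9, at the percentile 98.6 of the genes tested. *Tek* was the lowest at the percentile 58.6 and rested on as few as 175 reads in a sample, which gives a counting error of 7.56%. *Vegfa* rested on 6425 to 8746 reads.

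In cKO islets most endothelial genes lay slightly higher and *Vegfa* and *Esm1* slightly lower than in Ctrl, with no call after adjustment. Of the 9 endothelial genes, 2 were higher at an unadjusted p under 0.05 (*Plvap* and *Cdh5*), beside 4.33% of all genes tested. None was lower at that threshold, beside 3.07% of all genes. At an adjusted p under 0.05 there was no member, and 0% of all genes (limma), with 919 genes higher and 651 lower at an unadjusted p under 0.05. The targeted gene *Parn* was not called after adjustment either. It had a log2 fold change of -0.44, with an unadjusted p of 0.0135 and an adjusted p of 0.545 (limma). The log2 fold change was above 0 for 7 of the 9, beside 46.5% of all genes, and its median was 0.16 over the 9 and -0.01 over all genes tested. All cKO samples lay above all Ctrl samples for 3 of the 9, beside 7.11% of all genes. No member, *Vegfa* included, had all cKO samples below all Ctrl samples, beside 6.03% of all genes. In these bulk samples, a change in the number of endothelial cells and a change in RNA per cell cannot be told apart.

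**Figure D1:**
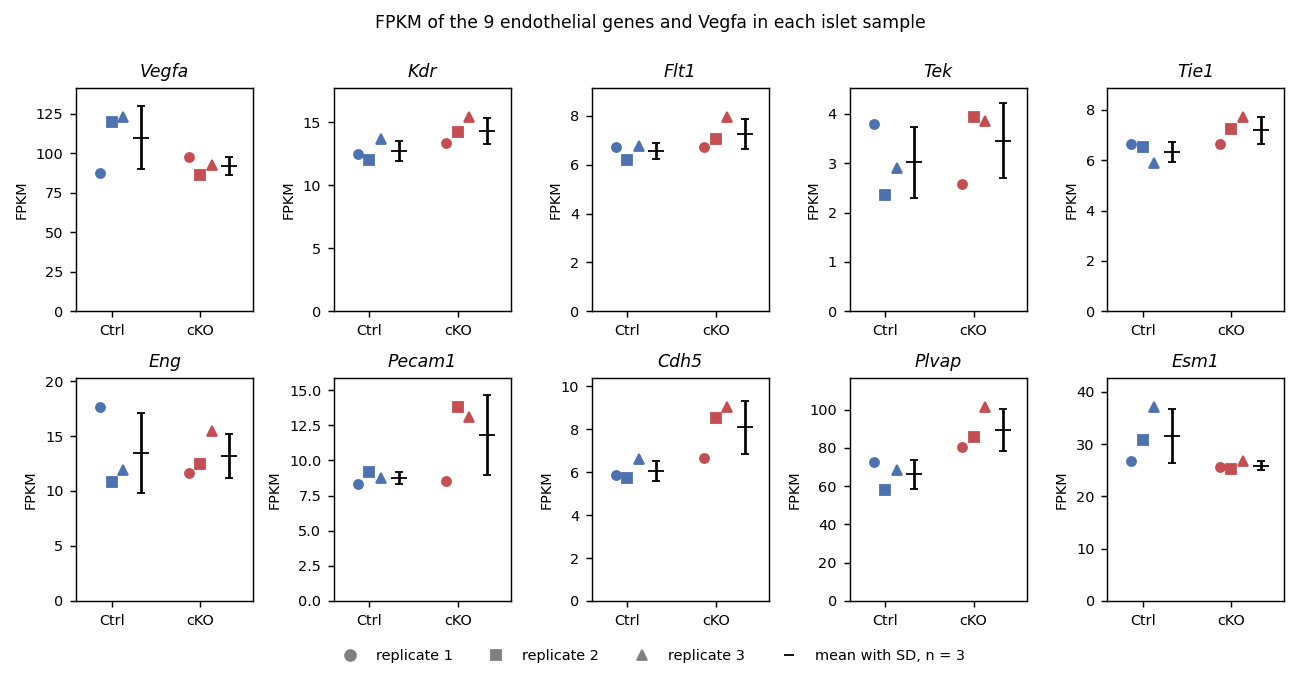
FPKM (vertical axis, from 0) of *Vegfa* and the 9 endothelial genes in each Ctrl (blue) and cKO (red) sample, 1 gene a panel. Symbols give the replicate number and the black bar the mean with SD of 3 samples. *Plvap*, *Cdh5* and, by a narrow margin, *Tie1* separate by genotype. *Pecam1* is high in cKO replicates 2 and 3 only, and *Vegfa* and *Esm1* are highest in Ctrl replicates 2 and 3.

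The ligand *Vegfa* (ENSMUSG00000023951) lies on the minus strand of GRCm38 at chr17:46016993-46032369. *Vegfa* stood at 87.1, 119.7 and 122.7 FPKM in the Ctrl samples, against 97.5, 86.2 and 92.2 in the cKO samples. Ctrl replicates 2 and 3 exceeded all cKO samples, but Ctrl replicate 1 was lower than 2 of the cKO samples, so the groups overlapped. The Ctrl mean was 109.8 ± 19.7 (SD, n = 3), and that of cKO 92.0 ± 5.62 (SD, n = 3). The log2 fold change was -0.24 (95% interval -0.60 to 0.12), with an unadjusted p of 0.156 and an adjusted p of 0.797 (limma), so the difference did not pass the test. Without Ctrl replicate 1, the sample with the high leukocyte and red blood cell genes, it was -0.40 with an unadjusted p of 0.0070 and an adjusted p of 0.244, and without Ctrl replicate 3 it was -0.15, with an unadjusted p of 0.372. The part of those cells in the *Vegfa* value was not tested. The gene has 13 annotated transcripts, of which 8 are protein coding, and gene-level FPKM does not separate them.

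*Esm1* (ENSMUSG00000042379, chr13:113209659-113218098, plus strand) encodes endocan, a secreted proteoglycan of endothelial tip cells and a widely used readout of VEGF signalling. It was at 26.8, 30.7 and 37.1 FPKM in the Ctrl and at 25.6, 25.2 and 26.8 in the cKO samples. The cKO samples were close together, and only cKO replicate 3 reached the lowest Ctrl sample. *Esm1* had a log2 fold change of -0.26 (95% interval -0.56 to 0.04), with an unadjusted p of 0.075 and an adjusted p of 0.700 (limma). As for *Vegfa*, the highest samples were Ctrl replicates 2 and 3. Without Ctrl replicate 1 the change was -0.37, with an unadjusted p of 0.014 and an adjusted p of 0.309, and without Ctrl replicate 3, the highest sample, it was -0.14 with an unadjusted p of 0.172.

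The bases just before the transcription start of *Vegfa*, *Esm1* and *Flt1* are shown because these are the ligand, the endothelial gene with the most negative log2 fold change and the high-affinity receptor. Each run is the 100 bases before a RefSeq start in GRCm38.p6, written 5′ to 3′ on the gene's strand, with the core GGAA of ETS factors, or its reverse complement TTCC, in capitals. The windows are chr17:46032378-46032477, chr13:113209559-113209658 and chr5:147726012-147726111. ETS factors such as ERG and FLI1 are general regulators of endothelial genes.
Vegfa: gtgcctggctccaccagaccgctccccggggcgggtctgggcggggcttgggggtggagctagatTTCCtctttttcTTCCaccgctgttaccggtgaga
Esm1: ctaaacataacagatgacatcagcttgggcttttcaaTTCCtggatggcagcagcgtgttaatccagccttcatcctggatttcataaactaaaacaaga
Flt1: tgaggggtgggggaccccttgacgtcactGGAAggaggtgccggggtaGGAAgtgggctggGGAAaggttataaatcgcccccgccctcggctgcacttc
GGAA or TTCC occurred 2 times in the *Vegfa* window shown, 1 time in that of *Esm1* and 3 times in that of *Flt1*. The same letters were in 66.8% of the 32851 RefSeq windows of 100 bases, so they are common in promoters. The GC box GGGCGG, searched on both strands, occurred 2 times for *Vegfa* and 1 time for *Flt1*, and was in 24.7% of all windows. TATAAA was in the *Flt1* window alone of these 3, beside 5.56% of all windows. The hypoxia response core ACGTG (8.09% of windows) and the longer ETS site CCGGAA (7.23%), which contains GGAA, were in none of the 3. RefSeq lists a second *Vegfa* start, whose window at chr17:46025164-46025263 held GGAA 2 times and GGGCGG 0 times and is not printed. In the 250 bases before that start ACGTG occurred 1 time, and in those before the first start 0 times. It was in 16.6% of all windows of 250 bases. Bases further upstream were not searched. Of the 10 members, 7 had an entry in the promoter table; *Pecam1*, *Cdh5* and *Plvap* were without one.

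The 2 VEGF receptors were slightly higher in cKO islets, and neither passed the test. *Kdr* (ENSMUSG00000062960, chr5:75932827-75978458, minus strand) was at 12.5, 12.04 and 13.6 FPKM in the Ctrl and at 13.4, 14.2 and 15.4 in the cKO samples. Only cKO replicate 1 fell within the Ctrl range. The log2 fold change of *Kdr* was 0.16 (95% interval -0.06 to 0.37), with an adjusted p of 0.766 (limma). *Flt1* (ENSMUSG00000029648, chr5:147561604-147726011, minus strand) was at 6.72, 6.18 and 6.77 in the Ctrl and at 6.74, 7.07 and 7.95 in the cKO samples. Its log2 fold change was 0.13 (95% interval -0.10 to 0.35), with an adjusted p of 0.820. Of the 6 annotated *Flt1* transcripts 2 are protein coding, and gene-level values do not separate the membrane receptor from the soluble decoy.

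Among the angiopoietin receptors, *Tek* (ENSMUSG00000006386, chr4:94739289-94874976, plus strand) was at 3.78, 2.36 and 2.91 FPKM in the Ctrl and at 2.57, 3.93 and 3.85 in the cKO samples. High and low samples occurred in both genotypes, and the log2 fold change was 0.15 (95% interval -0.31 to 0.60), with an adjusted p of 0.891 (limma). *Tie1* (ENSMUSG00000033191, chr4:118471191-118490061, minus strand) was at 6.62, 6.503 and 5.87 in the Ctrl and at 6.63, 7.22 and 7.70 in the cKO samples. Its groups did not overlap, but cKO replicate 1 and Ctrl replicate 1 differed only in the second decimal, and the log2 fold change of 0.16 (95% interval -0.07 to 0.39) had an adjusted p of 0.782.

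*Eng* (ENSMUSG00000026814, chr2:32646595-32682669, plus strand) encodes endoglin, the co-receptor for BMP9 and BMP10 on endothelial cells. Its FPKM was 17.7, 10.8 and 11.9 in the Ctrl and 11.6, 12.4 and 15.5 in the cKO samples, so the highest value was that of Ctrl replicate 1. The genotypes differed by a log2 fold change of -0.01 (95% interval -0.48 to 0.46), with an adjusted p of 0.997 (limma), and became 0.19 without Ctrl replicate 1. Endoglin is also made by some macrophages, and this is the sample with the high leukocyte genes; their part in its *Eng* value was not tested. *Eng* also shares exon bases with *Fpgs* on the opposite strand, and whether the counting used strand is not given in the sources used here. *Fpgs* was at 4.49 to 8.03 FPKM.

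The junction and fenestration genes had the larger positive log2 fold changes. *Plvap* (ENSMUSG00000034845, chr8:71497765-71511752, minus strand) encodes the protein of the diaphragms that span endothelial fenestrae. It was at 72.4, 57.7 and 68.2 FPKM in the Ctrl and at 80.6, 85.7 and 101.5 in the cKO samples. Every cKO sample was above every Ctrl sample, with means of 66.1 ± 7.56 (SD, n = 3) and 89.2 ± 10.9 (SD, n = 3). The difference was 0.43 ± 0.13 on the log2 scale (SE; 95% interval 0.12 to 0.74), with an unadjusted p of 0.0145 and an adjusted p of 0.545 (limma), so it did not pass after adjustment. Without cKO replicate 3 it was 0.33, with an unadjusted p of 0.05001, just over the threshold.

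*Cdh5* (ENSMUSG00000031871, chr8:104101625-104144511, plus strand) encodes VE-cadherin, the adhesion protein of endothelial junctions. It was at 5.85, 5.73 and 6.61 FPKM in the Ctrl and at 6.68, 8.54 and 9.05 in the cKO samples. The groups did not overlap, though cKO replicate 1 was nearly level with Ctrl replicate 3. The genotypes differed by 0.36 ± 0.13 on the log2 scale (SE; 95% interval 0.05 to 0.66), with an unadjusted p of 0.029 and an adjusted p of 0.616 (limma). The unadjusted p was over 0.05 when Ctrl replicate 1 or 2 or cKO replicate 2 or 3 was left out, with values of 0.066, 0.084, 0.089 and 0.0996, and also when islet hormones were kept out of the library size, at 0.054.

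*Pecam1* (ENSMUSG00000020717, chr11:106654217-106750628, minus strand) encodes CD31, a surface protein of all endothelium and of some leukocytes. It was at 8.36, 9.15 and 8.74 FPKM in the Ctrl samples and at 8.53, 13.8 and 13.1 in the cKO samples. The level of cKO replicate 1 lay within the Ctrl range, whereas the other two cKO samples stood well above it. For *Pecam1* the log2 fold change was 0.37 (95% interval -0.05 to 0.79), with an unadjusted p of 0.077 and an adjusted p of 0.700 (limma). Without cKO replicate 1 it was 0.57, with an unadjusted p of 0.0014 and an adjusted p of 0.429. The cKO replicates 2 and 3 are also the samples with high fibroblast genes.

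**Figure D2:**
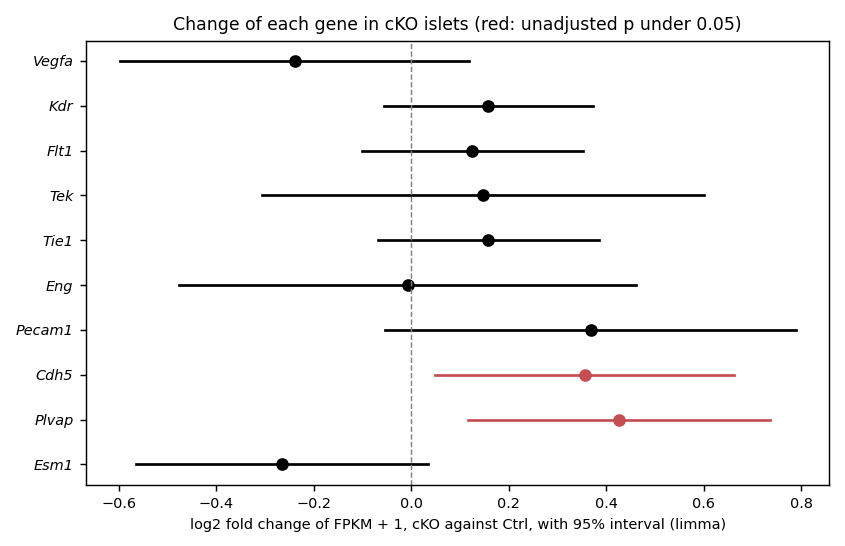
Log2 fold change (horizontal axis, log2 of FPKM + 1, cKO against Ctrl) of each of the 10 genes with its 95% interval from limma; red marks an unadjusted p under 0.05. The intervals of *Plvap* and *Cdh5* lie above 0, and the other 8 include it.

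Leaving out 1 sample at a time showed how far each value rested on single samples. The number of the 9 endothelial genes higher at an unadjusted p under 0.05 ran from 0 without cKO replicate 3 to 3 without cKO replicate 1. It was 1 without Ctrl replicate 1, without Ctrl replicate 2 and without cKO replicate 2. The number lower was 1, *Esm1*, without Ctrl replicate 1 and 0 otherwise. Over all genes, 1231, 683 and 776 were higher at that threshold without Ctrl replicates 1, 2 and 3 in turn, against 919 with all samples. Such counts are not given here for the fits without a cKO sample. The 0 and 3 above are therefore not read as particular to the endothelial genes. Without Ctrl replicate 1, 1142 of all genes were lower, against 651 with all samples, so calls rose in general in that fit. The median log2 fold change of the 9 stayed above 0, between 0.11 and 0.21.

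**Figure D3:**
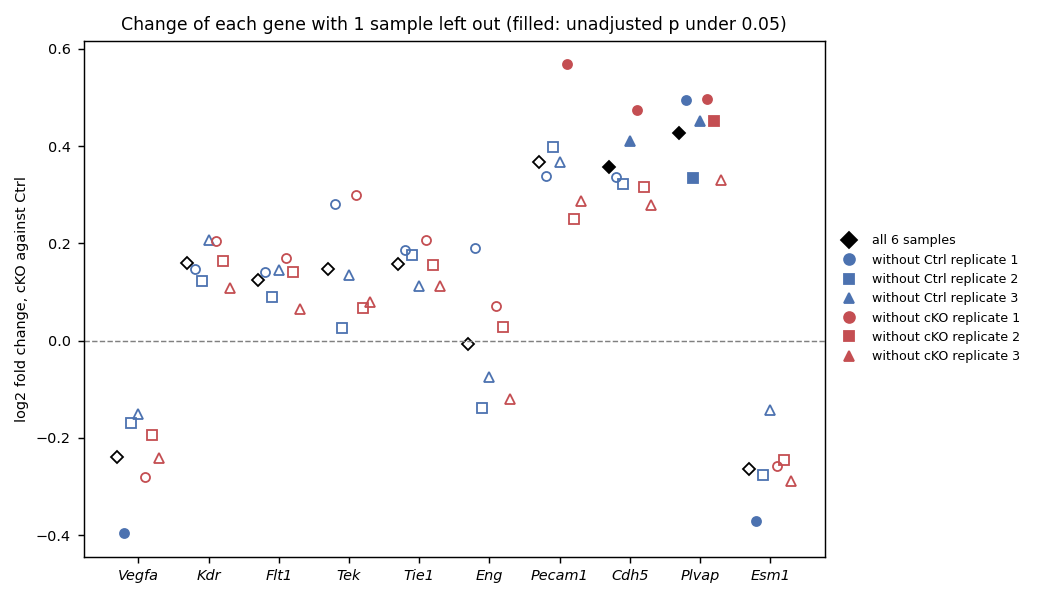
Log2 fold change (vertical axis, cKO against Ctrl) of each of the 10 genes with all 6 samples (diamond) and with 1 sample left out (blue, a Ctrl sample; red, a cKO sample); filled symbols have an unadjusted p under 0.05. *Plvap* stays above 0.3 throughout, *Vegfa* and *Esm1* move furthest down without Ctrl replicate 1, and *Eng* changes sign.

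Each other gene was also set against *Pecam1* and *Cdh5* of the same sample. Its FPKM was divided by the geometric mean of these genes and compared on the log2 scale. The comparison was an exact permutation test, two-sided, whose smallest possible p with 3 samples a group is 0.1. Of the 8 genes, 1 had groups that did not overlap on this scale, *Esm1*, beside 22.2% of the 18182 tested genes above 0 in every sample that were lower in this way. Its ratios were 1.94, 2.08 and 2.29 in the Ctrl and 1.76, 1.21 and 1.30 in the cKO samples. The difference was -0.68 (exact permutation p = 0.1, 0.32 adjusted over the 8 genes). For *Vegfa* the ratios were 3.64, 4.05 and 4.01 in the Ctrl and 3.69, 2.99 and 3.08 in the cKO samples, a difference of -0.65 (exact permutation p = 0.2, 0.32 adjusted). The differences for *Eng*, *Flt1*, *Kdr*, *Tie1* and *Tek* ran from -0.41 to -0.21, with exact permutation p of 0.2 to 0.5, and their groups overlapped. *Plvap* differed by 0.03 (exact permutation p = 0.8), so its ratio to *Pecam1* and *Cdh5* was nearly level. Since both genes of the divisor were high in cKO replicates 2 and 3, a gene with a smaller log2 fold change than theirs has a negative difference here. The median difference over those 18182 genes was -0.42. The ratio is therefore not a measure of endothelial RNA. For *Vegfa*, whose protein is secreted by β cells, it sets genes of different cells side by side.

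**Figure D4:**
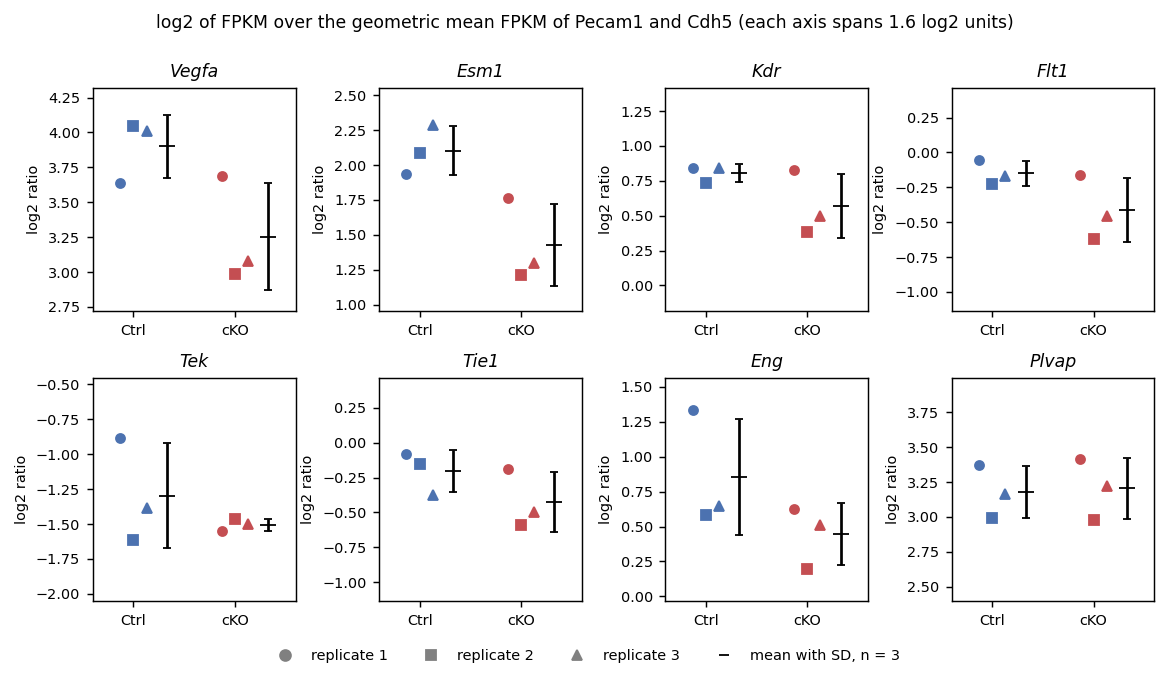
Log2 of FPKM over the geometric mean FPKM of *Pecam1* and *Cdh5* (vertical axis, each panel spanning the same number of log2 units) for the other 8 genes by sample. Symbols give the replicate number and the bar the mean with SD of 3 samples. *Esm1* is lower in all cKO samples, *Vegfa* in cKO replicates 2 and 3, and *Plvap* is level.

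Of 22 other endothelial markers, 14 had a log2 fold change above 0 and 8 below, beside 46.5% of all genes above 0. None passed an unadjusted p of 0.05 on the lower side (3.07% of all genes), and 2 did on the higher side (4.33%). They were *Mmrn2*, a matrix protein at endothelial surfaces, at 0.32 (adjusted p 0.590, limma), and *Rasip1*, a factor in vessel tube formation, at 0.32 (adjusted p 0.641). *Mmrn2* was at 4.75 to 5.74 FPKM in the Ctrl and 6.54 to 7.79 in the cKO samples. The unadjusted p of *Mmrn2* was over 0.05 without Ctrl replicate 3 (0.066) or cKO replicate 3 (0.089). That of *Rasip1* was over it without Ctrl replicate 2 or 3 or cKO replicate 1 or 2 (0.065 to 0.124) and with islet hormones kept out of the library size (0.067). The pan-endothelial genes *Emcn*, at -0.12, and *Esam*, at 0.15, did not pass the test. Neither did *Cldn5*, at -0.31 and at most 1.74 FPKM in any sample, nor *Egfl7*, at 0.06. The median over the 22 was 0.09, against -0.01 over all genes. The summed level of these 22 markers was 79.0 to 100.8 FPKM in the Ctrl and 81.8 to 104.4 in the cKO samples, and Ctrl replicate 1 and cKO replicate 2 were the highest.

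The other genes of the VEGF and angiopoietin pathways showed 1 call, on the higher side, among the 10 tested of 11, beside 4.33% of all genes. *Vegfd*, a ligand mainly of the lymphatic receptor, was higher by 0.29 (unadjusted p 0.014, adjusted p 0.545, limma). It rested on 0, 3 and 1 reads in the Ctrl samples and its FPKM in the cKO samples was no higher than 0.287. At so few reads its size depends on the pseudocount, and it was 1.48 with a pseudocount of 0.1 and 3.02 with voom on the reads. *Vegfb* and *Pgf*, ligands of VEGFR1, were at -0.22 and -0.36, with adjusted p of 0.820 and 0.727. *Pgf* was at -0.48 without Ctrl replicate 1 (unadjusted p 0.045, limma) and at -0.23 without Ctrl replicate 2 (0.276) or cKO replicate 3 (0.278). *Nrp1*, a VEGF co-receptor, was at 0.13 (adjusted p 0.821). Of the 8 tested genes of the BMP9 and BMP10 pathway none passed in either direction, and *Acvrl1*, the type I receptor that acts with endoglin, was at 0.28 (adjusted p 0.766). It was at 0.40 without cKO replicate 1 (unadjusted p 0.043) and at 0.17 without cKO replicate 3 (0.348).

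Of 12 hypoxia factors and targets, 1 was higher and 1 lower at an unadjusted p under 0.05, beside 4.33% and 3.07% of all genes. *Slc2a1*, the glucose transporter GLUT1, was higher by 0.58 (adjusted p 0.640) and *Egln3*, a HIF prolyl hydroxylase, lower by 0.33 (adjusted p 0.626), the latter at no more than 0.689 FPKM in any sample and at -1.03 with a pseudocount of 0.1. *Epas1*, the HIF subunit abundant in endothelium, was at 0.25 (adjusted p 0.716). Among 10 Notch and tip cell genes, *Aplnr*, the apelin receptor, was higher by 0.63 (adjusted p 0.626), at 0.759, 0.980 and 1.27 FPKM in the Ctrl and 1.59, 3.30 and 1.61 in the cKO samples. *Dll4*, a Notch ligand of tip cells, was at -0.21 (adjusted p 0.820). These values leaned on single samples. The unadjusted p of *Slc2a1* was 0.090 to 0.107 without any 1 of Ctrl replicates 2 and 3 and cKO replicates 2 and 3, that of *Egln3* 0.066 to 0.095 without any 1 of Ctrl replicates 1 and 3 and cKO replicates 1 and 3, and that of *Aplnr* 0.059 to 0.085 without Ctrl replicate 1 or 2 or cKO replicate 2. *Aplnr* was at 0.38 without cKO replicate 2, its highest sample, and at 0.98 with a pseudocount of 0.1. *Epas1* was at 0.33 without Ctrl replicate 1 (unadjusted p 0.034) and at 0.13 without Ctrl replicate 2 (0.238). *Dll4* was at -0.40 without Ctrl replicate 1 (unadjusted p 0.0091) and at -0.08 without Ctrl replicate 3 (0.665). The median log2 fold change was 0.02 over the hypoxia list and 0.08 over the Notch and tip cell list.

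The vessel wall genes were mostly on the positive side with few calls. All 10 genes of the vascular basement membrane list had a log2 fold change above 0, beside 46.5% of all genes. Their median was 0.21, and none passed an unadjusted p of 0.05. They summed to 54.2, 62.6 and 73.3 FPKM in the Ctrl and to 64.6, 87.7 and 80.0 in the cKO samples. The cKO replicates 2 and 3 are also the samples with high fibroblast genes. Of 10 pericyte and smooth muscle markers, 9 were above 0, beside the same 46.5%, and 1 passed on the higher side, beside 4.33% of all genes. It was *Kcnj8*, a potassium channel subunit of pericytes, at 0.44 (adjusted p 0.619). Its unadjusted p was 0.055 to 0.098 without Ctrl replicate 2 or 3 or cKO replicate 2 or 3, and with a pseudocount of 0.1 the change was 0.83. *Lyve1*, a hyaluronan receptor of lymphatic endothelium and of some macrophages, was lower in every cKO sample. It was at 5.01, 4.25 and 3.91 FPKM in the Ctrl and at 2.71, 1.95 and 2.58 in the cKO samples, a log2 fold change of -0.66 (unadjusted p 0.0024, adjusted p 0.392, limma). It was the only call among the 5 tested lymphatic markers, beside 3.07% of all genes lower. Its unadjusted p stayed below 0.05 under all 15 alternatives.

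Genes of other cells were also uneven between the samples. All 6 fibroblast markers had a log2 fold change above 0, beside 46.5% of all genes. Of these, 2 had an unadjusted p under 0.05, beside 4.33% of all genes higher. *Lum*, a collagen-binding proteoglycan, was higher by 1.26 (adjusted p 0.406). The summed fibroblast level was high in cKO replicates 2 and 3, the samples with high *Pecam1* and *Cdh5*, and was 10.8 in cKO replicate 1. The 9 endothelial genes summed to 160.7, 141.2 and 161.8 FPKM in the Ctrl and to 162.4, 178.1 and 200.8 in the cKO samples. Of 8 leukocyte markers 7 were below 0, 1 of them, *Cd79a*, at an unadjusted p under 0.05, beside 3.07% of all genes lower. All 5 red blood cell markers were below 0, none of them at that threshold. Of the 21211 genes tested, 11355 were below 0. Ctrl replicate 1 was the highest sample for every marker of both lists. Ctrl replicates 2 and 3 were below all cKO samples for *Ptprc*, *Cd68*, *Adgre1*, *Laptm5* and *Hbb-bt*. They were above all cKO samples for *Cd79a* and *Alas2*, and overlapped them for the other markers below 0. No marker of these 3 lists was at 0 in any sample. The 10 acinar markers summed to 8376 to 22579 in the Ctrl and 10337 to 37555 in the cKO samples, and cKO replicate 2, with the highest *Pecam1*, had the lowest of the cKO sums. The part of these cells in the endothelial values was not tested. Of 7 β-cell markers, 6 had a log2 fold change below 0 and 1 above, beside 11355 below 0 of the 21211 genes tested. Their median was -0.30, beside -0.24 for *Vegfa* and -0.01 over all genes tested. Of the 6, 1 had an unadjusted p under 0.05 (limma), beside 3.07% of all genes lower. All cKO samples lay below all Ctrl samples for 2 of the 7, *Ins2* and *Iapp*, beside 6.03% of all genes. Their log2 fold changes were -0.46 and -0.54. At their very high levels the fit gave standard errors of 2.87 and 0.72, with unadjusted p of 0.877 and 0.480 (limma). The count of 1 therefore says little about *Ins2* and *Iapp*. The part of β cells in the *Vegfa* value was not tested.

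**Figure D5:**
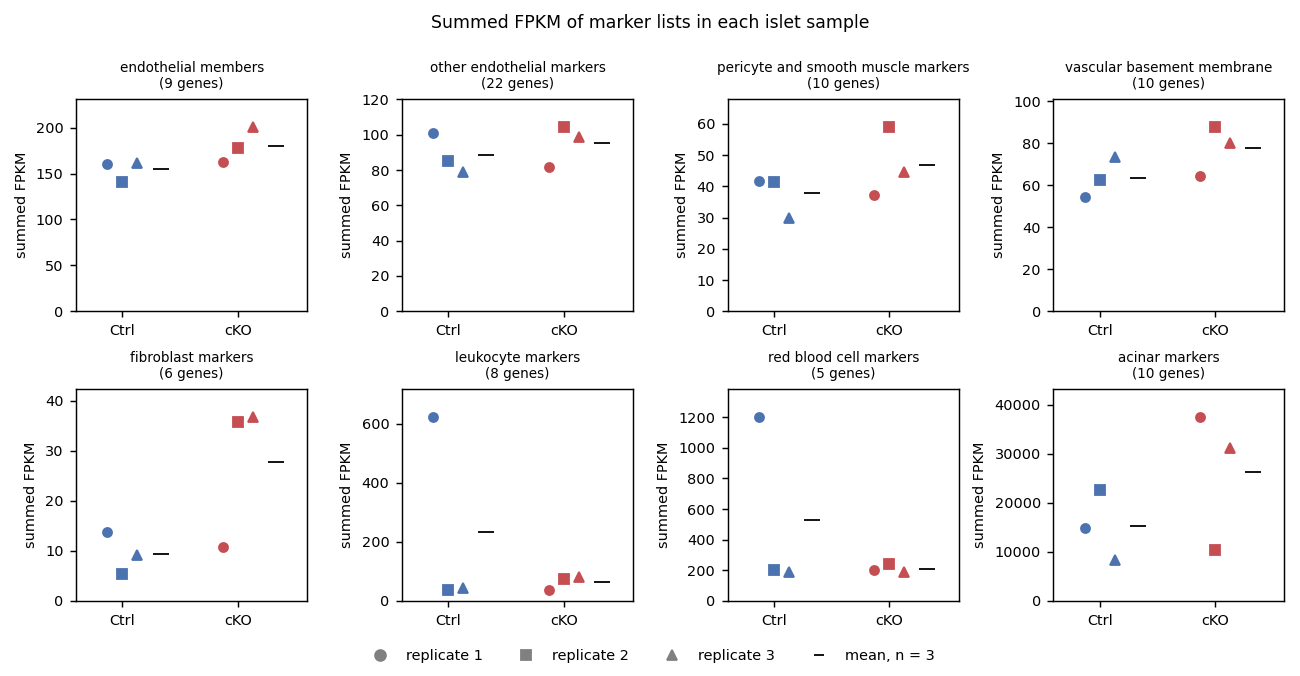
Summed FPKM (vertical axis, from 0) of 8 marker lists in each sample; symbols give the replicate number and the bar the mean of 3 samples. Ctrl replicate 1 is far above the rest in leukocyte and red blood cell markers, and cKO replicates 2 and 3 in fibroblast markers, whereas the endothelial sums differ by far less.

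The profile of the endothelial genes over the samples was summarised as the mean of their z-scores, which was -0.15, -0.84 and -0.24 in the Ctrl and -0.38, 0.51 and 1.11 in the cKO samples. By this measure, too, cKO replicate 1 lay among the Ctrl samples. Among the 13353 genes whose mean FPKM was 1 or more, those with the highest Pearson's r to it over the 6 samples were *Tmem30a* (0.984), *Nrp1* (0.983), *Gm14719* (0.981), *Loxl1* (0.980) and *Alg9* (0.979). The genes most like *Vegfa* were *Psd* (0.997), *Abhd15* (0.993), *Pias4* (0.992), *Slx1b* (0.992) and *Grk5* (0.991). These r are the highest of a ranking and describe 6 points that share their libraries.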

How the data were processed

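Islet RNA libraries were made with the SMARTER mRNA-Seq kit per the labels. The authors deposited 1 table of FPKM values for 55060 genes in 6 samples, with GRCm38 coordinates; the aligner and counter behind it are not given in the sources used here. FPKM multiplied by gene length and divided by the step between values was whole within 0.05 for at least 99.99% of values. This gave the reads per gene and the library sizes, which are the divisors used in the FPKM.

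Samples were grouped by the titles of the labels. Genes whose mean FPKM was 0.1 or more (21211) were compared on log2(FPKM + 1) by limma 3.58.1 under R 4.3.3, two-sided, in a linear model of genotype alone with trended empirical Bayes, and p-values were adjusted after Benjamini and Hochberg over all genes tested. A fold change on this scale understates that of low genes. The code was tested on simulated data. Intervals are at 95% and come from the fit. Ratios to *Pecam1* and *Cdh5* were compared with exact two-sided permutation tests.

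The members and lists were chosen with earlier results of these data known. Named are the members, *Parn*, genes of each list with an unadjusted p under 0.05 and no overlap (up to 6), up to 4 of the first genes of each list, and the 5 genes most like each profile. *Slc2a1* and *Fpgs* were named outside this rule, after their values were seen. Alternatives were another pseudocount, other filters, no trend, 3 other scalings, voom on the reads, a replicate block and leaving out each sample. Promoter sequences are RefSeq's, and transcripts those of the GENCODE annotation of GRCm38. Figures were drawn with Python 3.11.15 and matplotlib 3.10.9.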

Additional observations from a re-analysis of the deposited data

How the results depend on the processing

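Of the 56 results computed under up to 15 alternatives, the median log2 fold change of the 9 endothelial genes stayed above 0 throughout, between 0.11 and 0.21. The number of them higher at an unadjusted p under 0.05 was 1 when islet hormones were kept out of the library size, since *Cdh5* then had a p of 0.054 (*Rasip1*, 0.067), and ran from 0 to 3 when 1 sample was left out; the number lower ran from 0 to 1. When 1 sample was left out, the genes lower in cKO at an unadjusted p under 0.05 numbered 401 to 1142 and those at an adjusted p under 0.05 numbered 0 to 14, the highest of both without Ctrl replicate 1 and the lowest of the former without cKO replicate 3. The *Vegfa* change ran from -0.40 to -0.15 in the same fits, passed an unadjusted p of 0.05 without Ctrl replicate 1 alone, and had adjusted p from 0.244 to 0.958 over all alternatives. *Eng* turned from -0.01 to 0.0024 with quantile normalization and ran from -0.14 to 0.19 with 1 sample left out, and *Plvap* relative to *Pecam1* and *Cdh5* ran from -0.078 to 0.14. *Plvap* kept an unadjusted p under 0.05 in 14 of 15 alternatives and *Cdh5* in 10. With the replicate number as a block (replicate block), 2 endothelial genes were again higher and 0 lower, and the median was 0.16, while *Mmrn2*, *Rasip1*, *Kcnj8*, *Slc2a1* and *Egln3* had unadjusted p of 0.069, 0.083, 0.051, 0.078 and 0.071. The numbers do not pair the samples, since same-numbered samples deviated from their group means with correlations of -0.17, -0.02 and -0.07, so the block was not used in the text. The causes of these shifts were not tested. With 3 samples a group, no gene reached an adjusted p under 0.05 with all samples in, and intervals such as that of *Tek*, from -0.31 to 0.60, leave changes of either sign.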
